A study of Homo sapiens with 6 samples.

Results

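GRB2, SHC1, PTPN11, SOS1, SOS2, HRAS, NRAS and BRAF are 8 genes that carry a signal from activated growth factor receptors to the RAS GTPases and on to the RAF kinases. They were chosen by symbol, without a threshold on any measured value, from the 60671 genes of the deposited tables. Earlier results of these data were known when they were chosen. Each of the 8 had enough reads to be tested. The question was how the RNA of these genes stood in a granulosa cell line after depletion of FOXL2, a forkhead transcription factor that granulosa cells of the ovary need to keep their identity. The cells were KGN, a human line derived from a granulosa cell tumour, genome-edited so that both FOXL2 alleles were wild type (labelled FOXL2 WT/WT). Every library came from this edited line. The 3 FOXL2 siRNA libraries came from cells transfected with 30 pmol of a pool of 3 siRNAs against FOXL2. The 3 control siRNA libraries came from cells that received the same amount of a scrambled siRNA. The transfection reagent was Lipofectamine RNAiMax, and RNA was taken 30 h after transfection. The 3 pools were drawn from 4 siRNAs and had 1 siRNA in common, so the FOXL2 siRNA libraries differ in their siRNA mixture as well as in their replicate. Different mixtures need separate transfections, so the spread among the FOXL2 siRNA libraries includes differences between the pools. Nothing in the labels says whether the control libraries came from separate transfections, or whether any libraries came from separate cultures. The p-values measure the spread between these libraries, which in the controls may be technical.

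When a growth factor binds its receptor, the receptor phosphorylates its own tyrosines, and these serve as docking sites. GRB2 is the adaptor that joins such a site to the exchange factors SOS1 and SOS2, directly or through the adaptor SHC1. SOS proteins load RAS with GTP, the tyrosine phosphatase PTPN11 (SHP2) is needed for full RAS activation, and a GTP-bound RAS protein such as HRAS or NRAS recruits the RAF kinases, which start the MEK and ERK cascade. In granulosa cells this cascade relays the signals of gonadotropins and of epidermal growth factor-like ligands during ovulation.

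On GRCh38, as annotated in GENCODE v29, the adaptor GRB2 (ENSG00000177885) lies at chr17:75318076-75405709 on the minus strand, and SHC1 (ENSG00000160691) at chr1:154962298-154974395 on the minus strand. The phosphatase gene PTPN11 (ENSG00000179295) lies at chr12:112418351-112509913 on the plus strand. The exchange factor genes SOS1 (ENSG00000115904) and SOS2 (ENSG00000100485) lie at chr2:38981396-39124345 and chr14:50117120-50231558, both on the minus strand. The GTPase genes HRAS (ENSG00000174775) and NRAS (ENSG00000213281) lie at chr11:532242-537287 and chr1:114704469-114716894, and the kinase gene BRAF (ENSG00000157764) at chr7:140719327-140924928, all on the minus strand. The deposited tables list 12 transcripts for GRB2, 21 for BRAF and 1 for NRAS. GENCODE v29 places other genes with counts on the same ground as 5 of them. PYGO2 overlaps SHC1 on the same strand and held 1193 to 1497 expected counts per library, and the antisense gene AL451085.2 overlaps it on the opposite strand and held 19.8 to 44.8. RPL6 overlaps PTPN11 on the opposite strand and held 13473 to 19062, and NDUFB2 overlaps BRAF on the opposite strand and held 1782 to 2578. The overlapping genes were low at SOS1, where SOS1-IT1 on the same strand held 3 to 18 expected counts, and at GRB2, where AC011933.2 on the same strand held at most 7.9 and AC011933.3 on the opposite strand at most 2. The expected counts of SHC1, PTPN11 and BRAF were not whole numbers, which is how RSEM writes reads it divided among genes, whereas those of the other 5 genes were whole in every library. The annotated pseudogenes of PTPN11, BRAF and SHC1 held at most 6.1 expected counts in any library.

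The study asks whether FOXL2 binds RNA rich in G doublets, and forkhead proteins are known to bind DNA at short A-rich words, so both kinds of sequence are shown. In the GENCODE v29 transcripts, a run was defined as 8 G doublets separated by gaps of 1 to 4 bases. This is looser than the study's own consensus for RNA bound by FOXL2. That consensus keeps most gaps shorter and requires an A at the start of several. Such a run was present in at least 1 annotated transcript of 5 of the 8 genes and of 26.5% of the 15530 tested genes with a transcript in that release. In the longest transcript alone it was present in 2 of the 8 genes, SHC1 and BRAF, and in 19.3% of the tested genes. The shortest run of each gene follows, 5′ to 3′, with the 8 doublets in capitals.
GRB2: GGcGGcGGcagcGGcGGcGGcGGctgtGG
SHC1: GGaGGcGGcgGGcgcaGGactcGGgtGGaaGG
PTPN11: GGcGGcgaaGGgcGGgGGcGGaGGaGG
HRAS: GGcGGcGGcGGcGGcGGcGGcGG
BRAF: GGtGGcGGtGGtGGcGGcgcGGagccGG
The GRB2 run, at chr17:75405620-75405648, lies in the 5′ UTR of 2 of its 8 protein-coding transcripts. The HRAS run, at chr11:535290-535312, lies in the 5′ UTR of 1 of 5. The runs of SHC1 (chr1:154970150-154970181) and BRAF (chr7:140924661-140924688) lie in coding sequence, in 6 of 10 and 5 of 5 protein-coding transcripts. The PTPN11 run, at chr12:112418892-112418918, was found in 1 transcript without a coding sequence. No run was found in any annotated transcript of SOS1, SOS2 or NRAS. With the doublets as capitalized, none of the 5 runs matches the study's consensus. A run is a match of letters and not a measured binding site.

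Forkhead words were searched, on both strands, in RefSeq promoter windows of GRCh38.p14 that reach from 250 bases before a gene's start to 50 after it. The word GTAAACA was searched together with the word ATAAACA. The other two were GTAAATA and, with the same ending, ATAAATA. At least 1 word was present in 13.6% of all 35116 windows, a share per window and not per gene. Windows were at hand for 7 of the 8 genes, all but PTPN11, and SHC1 and SOS1 had more than 1 window each. A word was present in those of NRAS and BRAF, and those of BRAF are shown in 30 bases, 5′ to 3′ on the gene's strand, with the word in capitals.
BRAF, upstream word: gctggctggTGTTTATtttggaaagaggcg
BRAF, downstream word: cgccttcctacGTAAACAcacacaatggcc
The BRAF stretches, at chr7:140924489-140924518 and chr7:140924366-140924395, have their words 241 and 116 bases before the start used in that table, which is downstream of the first coding exon and inside the annotated span of the gene. In the upstream BRAF stretch the word is read on the opposite strand, as TGTTTAT. The windows of GRB2, SHC1, SOS1, SOS2 and HRAS held none of the 4 words.

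Counts and levels are given on 2 scales. CPM values are RSEM's expected counts scaled to a common library size after TMM normalization, and they compare a gene between libraries. TPM values, which RSEM also scales to the gene's estimated length, are used to compare genes with each other. The total expected counts were between 23843192 and 28791954 per library, and 15663 genes were tested. FOXL2 siRNA replicate 2 stood apart on the first principal component, which held 29.6% of the variance, with a score of 47.3 against -19.5 to -3.2 for the other libraries. FOXL2 itself had 9.88, 9.71 and 10.8 CPM in the control siRNA libraries and 2.64, 3.31 and 2.36 CPM in the FOXL2 siRNA libraries, a log2 fold change of -1.88 (SE 0.143, adjusted p = 0.00311, edgeR's quasi-likelihood test, Benjamini-Hochberg over all genes tested). Of 12 granulosa markers, 6 reached 1 TPM in at least 1 library (FOXL2, NR5A1, AMH, INHBA, FST and KRT18), whereas the FSH receptor gene FSHR and WT1 were listed at 0 TPM in all 6 libraries. The summed level of the 12, mostly KRT18, was 1021 to 1116 TPM in the control and 1040 to 1184 TPM in the FOXL2 siRNA libraries. NR5A1 had 35.33, 34.72 and 34.58 TPM in the controls and 39.22, 36.91 and 39.02 TPM after FOXL2 siRNA, above every control. FOXL2 was below every control in TPM too, and the conditions overlapped for AMH, INHBA, FST and KRT18. Of 13 markers of other cells, CD68, SOX9 and PTPRC reached 1 TPM. The summed level of the 13 was 80.3 to 92.5 TPM in the control and 58.4 to 77.7 TPM in the FOXL2 siRNA libraries. Most of that sum was CD68, at 76.25, 71.85 and 85.24 TPM in the controls and 52.23, 60.86 and 69.81 TPM after FOXL2 siRNA. The conditions overlapped for SOX9. The part of these marker differences in the results below was not tested. In bulk RNA, fewer cells that express a gene and less RNA per cell cannot be told apart.

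In the control libraries the 8 genes were expressed over a wide range. SHC1 was highest, at 146 ± 10.2 TPM (SD, n = 3 here and below), followed by HRAS at 126 ± 8.82, PTPN11 at 79.5 ± 3.32, GRB2 at 64.0 ± 0.873 and NRAS at 37.8 ± 1.61 TPM. The ranges of these neighbours did not overlap. SOS1 at 11.6 ± 0.837, SOS2 at 11.3 ± 0.529 and BRAF at 9.88 ± 2.12 TPM stood lowest, and their ranges overlapped, so their order is not resolved. SHC1, HRAS, PTPN11 and GRB2 were at the 93.3, 92.1, 87 and 84 percentiles of control TPM among the genes tested, NRAS at 74.4, and SOS1, SOS2 and BRAF at 48.2, 47.6 and 45.1. The RNAs of the adaptors and the phosphatase were more abundant, per length, than those of the exchange factors.

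None of the 8 genes passed an adjusted p of 0.05 in edgeR's test on the counts. Over all genes tested the same rule called 41, or 0.262%, so a count of 0 among 8 genes does not differ from what the background gives. Before adjustment, 4 of the 8 genes had a p below 0.05, against 13.4% of all genes. GRB2 and SHC1 were the lower ones, and SOS2 and NRAS the higher ones. Of all genes, 6.78% had such a p and were lower, and 6.67% had such a p and were higher. The CPM ranges of the 2 conditions were apart in 4 genes, GRB2 and SHC1 below and SOS1 and SOS2 above the controls, against 20.5% of all genes. The median log2 fold change was 0.10 over the 8 genes and 0.0055 over all genes, and the median of its absolute size was 0.19 against 0.12. In DESeq2 on the same rounded counts, which called 3.00% of the 11675 genes with an adjusted p, none of the 8 passed.

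**Figure D1:**
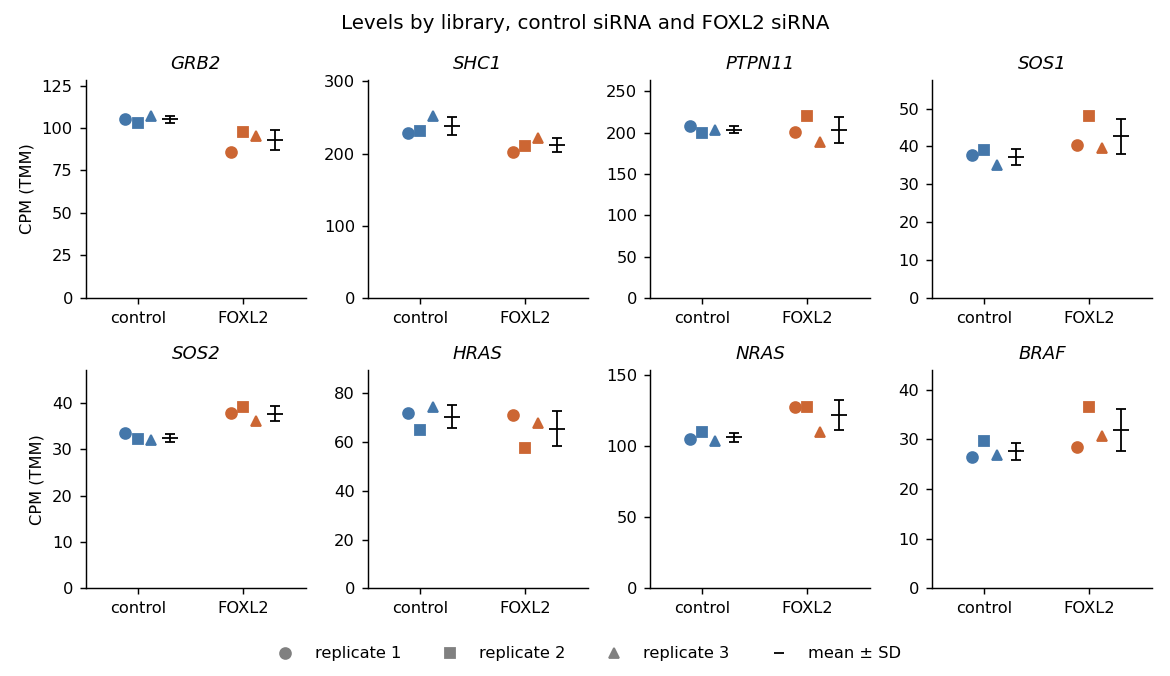
TMM-normalized CPM of the 8 genes in each library, with the control siRNA libraries on the left and the FOXL2 siRNA libraries on the right of each panel; symbols give the replicate, and the bar is the mean ± SD of 3 libraries. The FOXL2 siRNA libraries lie below all controls for GRB2 and SHC1 and above all controls for SOS1 and SOS2, and the conditions overlap for PTPN11, HRAS, NRAS and BRAF.

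GRB2, the adaptor, had 105, 103 and 107 CPM in the control siRNA libraries and 86.0, 97.5 and 95.4 CPM in the FOXL2 siRNA libraries. All 3 FOXL2 siRNA libraries were lower than every control, with replicate 1 lowest. The mean was 88.5% of the control mean, with a log2 fold change of -0.18 (SE 0.067, 95% interval -0.33 to -0.025), which did not pass the test (adjusted p = 0.316, edgeR). The exact permutation test gave a two-sided p of 0.1, the smallest that 3 libraries against 3 allow. Per length, GRB2 had 63.6, 65.0 and 63.4 TPM in the controls and 51.4, 55.1 and 56.8 TPM after FOXL2 siRNA, again without overlap. When DESeq2 was offset by the lengths that RSEM estimated in each library (effective lengths, described below), GRB2 was the 1 gene of the 8 that passed, with a log2 fold change of -0.24 (SE 0.076, adjusted p = 0.0483), in a fit that called 2.80% of the 12272 genes with an adjusted p. With the same offsets in edgeR the change was -0.24 with an adjusted p of 0.174. Leaving out each library in turn kept the DESeq2 fold change between -0.277 and -0.216 and gave adjusted p-values of 0.0396 to 0.276. GRB2 stayed under the threshold without FOXL2 siRNA replicate 3 and lost it without any other library (0.0523 without FOXL2 siRNA replicate 2, 0.276 without control siRNA replicate 1).

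SHC1, the adaptor that bridges receptors to GRB2, had 229, 232 and 252 CPM in the controls and 202, 211 and 222 CPM after FOXL2 siRNA. The 2 conditions did not overlap on this scale. The log2 fold change was -0.17 (SE 0.065, 95% interval -0.31 to -0.019, adjusted p = 0.324, edgeR). In TPM the conditions did overlap, with 136, 145 and 156 in the controls and 127, 136 and 142 after FOXL2 siRNA. RSEM divided some SHC1 reads with other genes, as its fractional counts show, and which genes these were was not tested.

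PTPN11, which encodes the phosphatase SHP2, had 208, 200 and 203 CPM in the controls and 201, 220 and 189 CPM after FOXL2 siRNA. The FOXL2 siRNA libraries held both the highest and the lowest value. The log2 fold change on counts was -0.0030 (SE 0.069, 95% interval -0.16 to 0.15, adjusted p = 0.991, edgeR). Per length the picture differed. PTPN11 had 80.9, 75.7 and 81.8 TPM in the controls and 71.9, 73.0 and 71.7 TPM after FOXL2 siRNA, so that all FOXL2 siRNA libraries were lower. DESeq2 with the length offsets gave -0.15, which did not pass (adjusted p = 0.331).

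The exchange factor genes were on the other side of the controls. SOS1 had 37.7, 39.0 and 35.0 CPM in the controls and 40.4, 48.0 and 39.7 CPM after FOXL2 siRNA. Every FOXL2 siRNA library was higher, replicate 2 by the widest margin. The log2 fold change was 0.20 (SE 0.091, 95% interval -0.0079 to 0.40, adjusted p = 0.385, edgeR), and it was 0.10 without FOXL2 siRNA replicate 2. SOS2 had 33.5, 32.1 and 31.9 CPM in the controls and 37.7, 39.2 and 36.1 CPM after FOXL2 siRNA, also without overlap. Its log2 fold change of 0.21 (SE 0.069, 95% interval 0.057 to 0.37, adjusted p = 0.246, edgeR) came with the smallest unadjusted p of the 8 genes, 0.0129. Among the 8 genes, SOS2 was the only one above the controls in all FOXL2 siRNA libraries on both scales, with 11.4, 11.8 and 10.7 TPM in the controls and 12.8, 12.7 and 12.7 TPM after FOXL2 siRNA. With the length offsets in DESeq2, the log2 fold change of SOS2 was smaller, at 0.16 (adjusted p = 0.486). The TPM of SOS1 overlapped, at 12.5, 10.9 and 11.4 in the controls against 13.2, 12.1 and 12.2.

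Of the RAS genes, HRAS had 71.7, 65.0 and 74.5 CPM in the controls and 70.9, 57.3 and 67.8 CPM after FOXL2 siRNA. The values overlapped, and the log2 fold change was -0.11 (SE 0.093, 95% interval -0.32 to 0.10, adjusted p = 0.645, edgeR). It was -0.027 without FOXL2 siRNA replicate 2. NRAS had 105, 110 and 104 CPM in the controls and 128, 128 and 110 CPM after FOXL2 siRNA. FOXL2 siRNA replicates 1 and 2 were above all controls, and replicate 3 met the highest control. The log2 fold change of NRAS was 0.20 (SE 0.075, 95% interval 0.030 to 0.37, adjusted p = 0.314, edgeR). NRAS has a single annotated transcript, and its fold change with effective lengths was close to this, 0.22 (adjusted p = 0.212, DESeq2). Without FOXL2 siRNA replicate 3 that fit gave 0.30 with an adjusted p of 0.0238, so a call for NRAS depended on leaving that library out.

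BRAF, the RAF kinase with the highest basal activity, had 26.5, 29.6 and 26.8 CPM in the controls and 28.4, 36.6 and 30.7 CPM after FOXL2 siRNA. The conditions overlapped. The log2 fold change was 0.21 on counts (SE 0.10, 95% interval -0.028 to 0.44, adjusted p = 0.417, edgeR) and -0.0019 with effective lengths (adjusted p = 0.997, DESeq2). On counts it was 0.094 without FOXL2 siRNA replicate 2. In TPM the values were 11.6, 7.50 and 10.6 in the controls and 7.69, 9.56 and 12.5 after FOXL2 siRNA, a wider spread within each condition than between them.

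**Figure D2:**
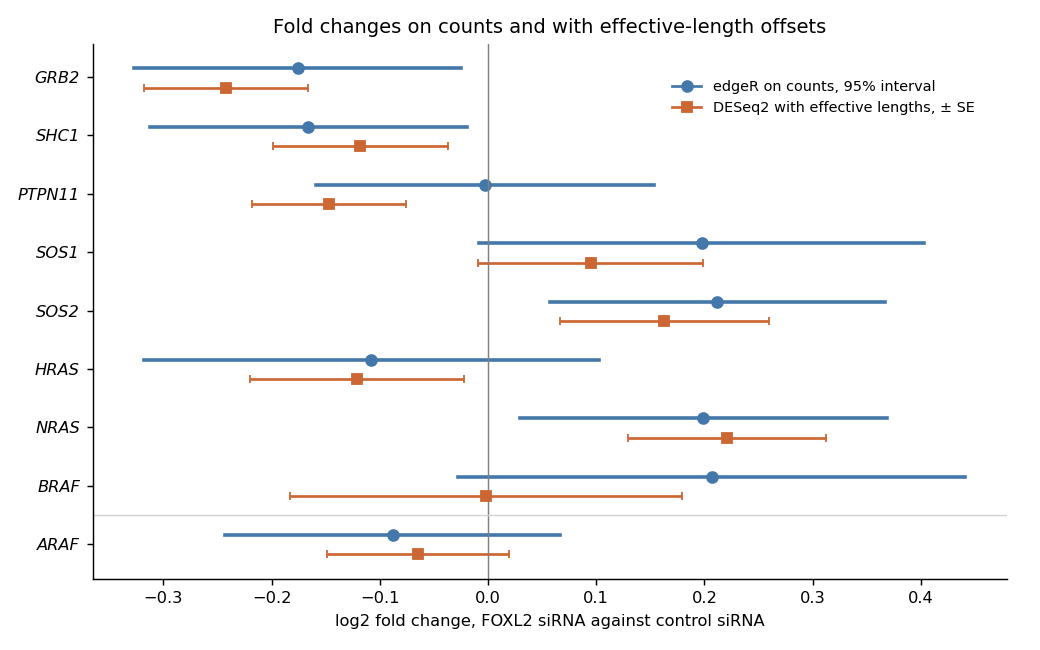
Log2 fold changes of the 8 genes and of the BRAF paralog ARAF, as points with the 95% interval from edgeR on counts (circles) and with ± SE from DESeq2 with length offsets (squares); values left of 0 are lower after FOXL2 siRNA. The offsets move GRB2 from -0.18 to -0.24, PTPN11 from -0.0030 to -0.15, SOS1 from 0.20 to 0.095 and BRAF from 0.21 to -0.0019, and leave NRAS near 0.2.

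TPM and TMM CPM differ in library scaling and in the effective length, which is the mean length that RSEM estimates for a gene in a library from the transcripts it assigns reads to. For BRAF it was 3406, 5886 and 3664 bases in the controls and 5402, 6027 and 3633 bases after FOXL2 siRNA. For PTPN11 it was 3813, 3945 and 3605 bases in the controls and 4089, 4764 and 3902 bases after FOXL2 siRNA. For GRB2 it was 2463, 2366 and 2438 bases against 2452, 2790 and 2492 bases. No gene of the 8 had effective lengths that separated the conditions. Of all genes tested 9.97% did, so this does not set the 8 genes apart from the background. In 5 of the 7 genes whose length varied by more than 1% (GRB2, PTPN11, SOS1, SOS2 and BRAF), the longest estimate was that of FOXL2 siRNA replicate 2. The same library held the longest estimate in 31.9% of the 13859 genes that varied by as much, against 10.1% to 12.3% for the controls and FOXL2 siRNA replicate 1 and 23.4% for FOXL2 siRNA replicate 3. For NRAS the estimate stayed between 4152 and 4163 bases, and FOXL2 siRNA replicates 1 and 2, both at 128 CPM, had 45.2 and 48.6 TPM. The TPM ranges were apart in 3 of the 8 genes (GRB2, PTPN11 and SOS2), against 18.4% of all genes.

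**Figure D3:**
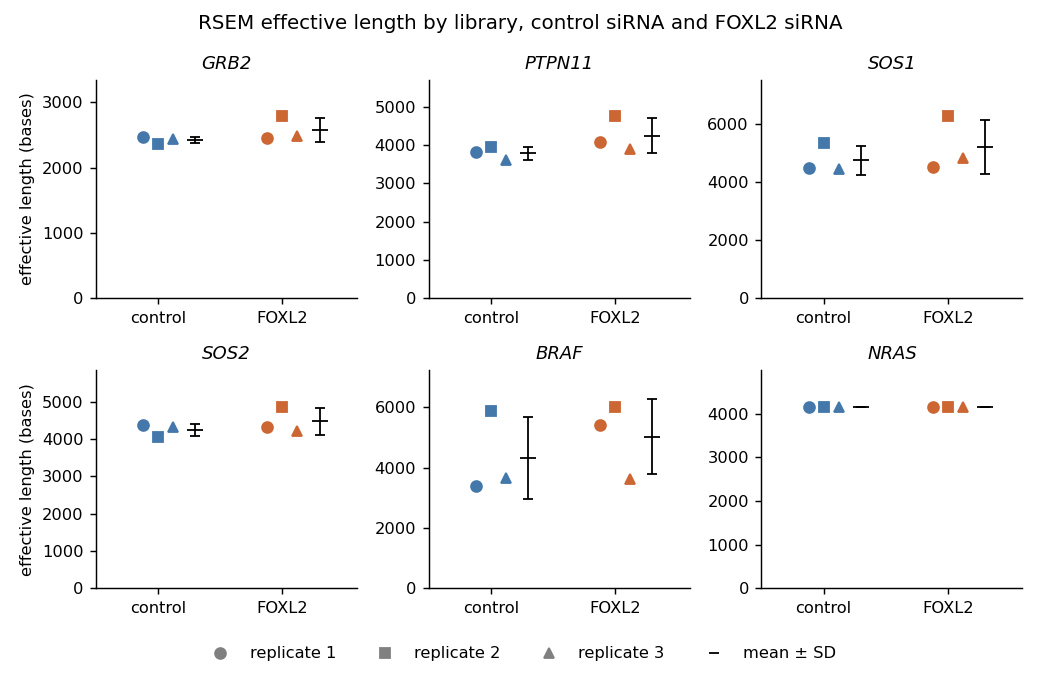
RSEM's effective length, in bases, of GRB2, PTPN11, SOS1, SOS2, BRAF and NRAS in each library, control siRNA on the left and FOXL2 siRNA on the right, with the mean ± SD of 3 libraries. FOXL2 siRNA replicate 2 (square) has the longest estimate of GRB2, PTPN11, SOS1, SOS2 and BRAF, and NRAS stays between 4152 and 4163 bases.

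SOS1 and SOS2 are paralogs with the same exchange activity, so their balance was compared as the share of SOS1 in their summed TPM. SOS1 made up 52.4%, 48.0% and 51.5% of the sum in the controls and 50.7%, 48.8% and 49.0% after FOXL2 siRNA. The FOXL2 siRNA libraries lay within the range of the controls. The mean share was 50.7% ± 2.32 against 49.5% ± 1.05, a difference of -1.17 percentage points that the exact permutation test did not separate from the spread (two-sided p = 0.5, n = 3 per condition). ARAF, a paralog of BRAF, was more abundant than BRAF in every library, at 45.0 ± 1.08 TPM in the controls and 43.3 ± 1.72 TPM after FOXL2 siRNA. It had 59.6, 57.1 and 58.9 CPM in the controls and 54.3, 52.2 and 58.7 CPM after FOXL2 siRNA, and its log2 fold change of -0.088 (SE 0.068) did not pass the test (adjusted p = 0.61, edgeR).

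The 3 genes whose log2 CPM followed that of GRB2 most closely over the 6 libraries, among 9468 tested genes with a mean of at least 10 CPM, were TINF2 (Pearson r 0.9979), a subunit of the shelterin complex at telomeres, FBXW4 (0.9968), an F-box protein gene, and DNAJB1 (0.9943), a co-chaperone of HSP70. The 6 libraries share the 2 conditions and their library sizes, so these values are a description of a shared pattern. TINF2 had 34.9, 33.8 and 35.5 CPM in the controls and 24.0, 29.7 and 29.3 CPM after FOXL2 siRNA. As with GRB2, the 3 controls were close together and FOXL2 siRNA replicate 1 was lowest.

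The rest of the route from receptor to ERK was followed with lists of 78 further genes by role, of which 63 were tested. None passed an adjusted p of 0.05 in edgeR's test on the counts, and before adjustment 1 was lower and 6 were higher with a p below 0.05. Over all genes the same p was reached by 13.4%, 6.78% lower and 6.67% higher. Their median log2 fold change was 0.051, beside 0.0055 for all genes. Of 17 tested receptor-proximal adaptor genes, none had an unadjusted p below 0.05, and the extremes were -0.16 and 0.22. Of 8 tested GTPase-activating protein genes, RASA1 had a p below 0.05, at 107, 114 and 107 CPM in the controls and 125, 133 and 117 CPM after FOXL2 siRNA (log2 fold change 0.19, adjusted p = 0.285, edgeR). PEBP1, which binds RAF kinases and restrains them, was the 1 gene with such a p among 7 tested RAF kinases and scaffolds. It had 203, 196 and 200 CPM in the controls and 180, 167 and 171 CPM after FOXL2 siRNA (log2 fold change -0.21, adjusted p = 0.18, edgeR).

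The MEK genes MAP2K1 and MAP2K2 had log2 fold changes of -0.11 and -0.063 and did not pass the test (adjusted p = 0.543 and 0.748, edgeR). MAPK3, which encodes the kinase ERK1 at the end of the cascade, had 71.9 TPM on average in the controls and 71.5 TPM after FOXL2 siRNA (log2 fold change 0.069, adjusted p = 0.711, edgeR). LAMTOR3, a scaffold of MEK and ERK on late endosomes, was at 0.11 (adjusted p = 0.704, edgeR).

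Of 10 genes that ERK signalling is known to induce, all tested, 9 had a log2 fold change above 0, beside 8043 of the 15663 genes tested. In 4 of them, all higher (SPRY2, ETV4, CCND1 and PHLDA1), the unadjusted p was below 0.05, which 6.67% of all genes reached in that direction. The median of the 10 was 0.22, and none passed after adjustment. Of 10 feedback inhibitor genes, which share SPRY2, SPRY4, DUSP4 and DUSP6 with that list, 7 were above 0, with a median of 0.19. SPRY2, a feedback inhibitor of receptor signalling, had 3.07, 3.67 and 3.84 CPM in the controls and 6.33, 5.58 and 4.82 CPM after FOXL2 siRNA. The conditions did not overlap, and the log2 fold change of 0.66 (SE 0.16, adjusted p = 0.134, edgeR) was the highest of the 63 genes. The ETS factor gene ETV4 had 12.4, 10.0 and 11.1 CPM in the controls and 15.5, 13 and 14.9 CPM after FOXL2 siRNA (0.38, adjusted p = 0.214, edgeR), and the phosphatase gene DUSP5 had 33.2, 33.3 and 43.4 against 44.4, 46.1 and 43.7 CPM (0.29, adjusted p = 0.314, edgeR). DUSP4 was the 1 gene below 0 among the 10 that ERK signalling is known to induce, with a log2 fold change of -0.22 (adjusted p = 0.698, edgeR).

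**Figure D4:**
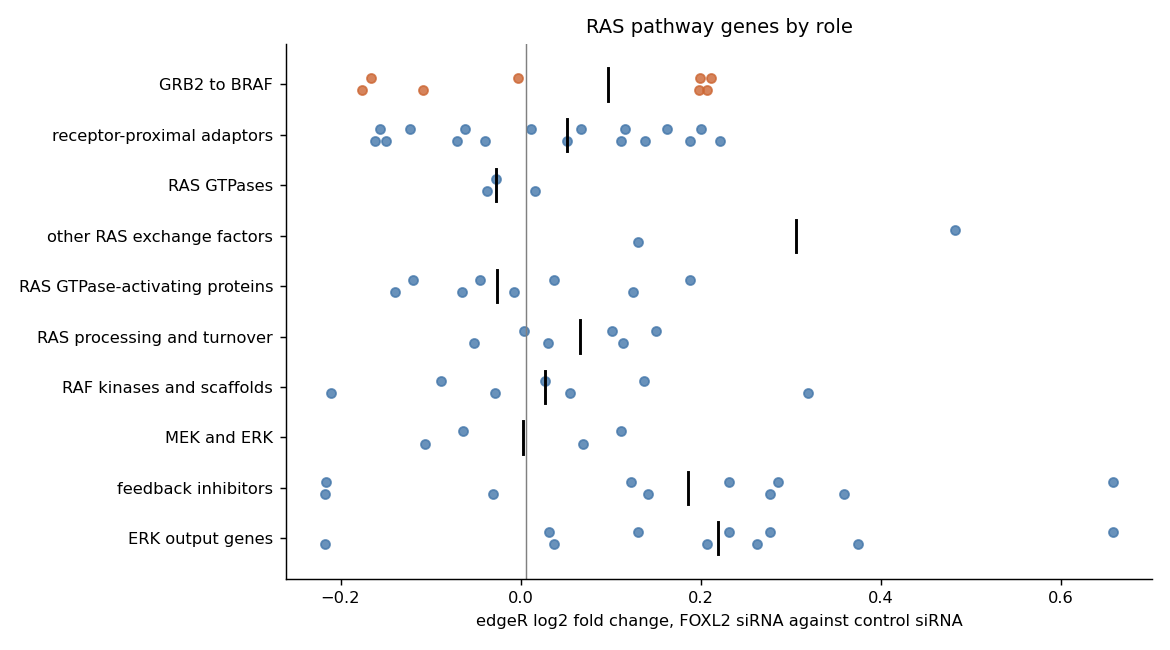
EdgeR log2 fold changes of the 8 genes (top row) and of the tested genes of each pathway list, 1 point per gene, with the median of the row as a black bar and the median of all genes tested as a grey line at 0.0055. The 8 genes span -0.18 to 0.21, and in the bottom rows, which share both genes, DUSP4 is the lowest point at -0.22 and SPRY2 the highest at 0.66.

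The remaining genes with the smallest unadjusted p of their lists had small or poorly resolved differences. The adaptor gene DOK1 had a log2 fold change of -0.16 (adjusted p = 0.38, edgeR) and IRS2 of 0.19 (adjusted p = 0.413), and the RAS GTPase genes RRAS and RRAS2 were at -0.027 and -0.037. The exchange factor genes RASGRF1 and RASGRF2 were near the limit of detection, with mean control levels of 0.406 and 0.363 CPM. DAB2IP was at 0.12, the RAS-processing genes PDE6D and FNTB at 0.15 and 0.11, and none of these had an adjusted p under 0.38. PPP1CB, the catalytic subunit of the SHOC2 phosphatase complex that acts on RAF, was at 0.32 (adjusted p = 0.447, edgeR), with 161 CPM in FOXL2 siRNA replicate 2 beside 104 and 97.6 CPM in the other FOXL2 siRNA libraries, and at 0.053 without that replicate.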

How the data were processed

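The samples were 6 stranded mRNA libraries of genome-edited KGN cells, grouped by siRNA as the labels give it, with 3 per condition. The authors aligned single reads with STAR 2.7.6a, checked them with Picard 2.8.1 and estimated expression with RSEM 1.3.1. The deposited expected counts are RSEM's estimated counts, not normalized, and the deposited TPM values were scaled by the authors' RSEM run to library and effective length. The submitters' notes name a mouse build, but the tables hold human Ensembl identifiers. Not given in the sources used here are the human build, the annotation release and RSEM's strand setting. Symbols were at hand for 60401 of 60671 identifiers.

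Expected counts were rounded, filtered with filterByExpr, normalized by TMM and tested with the quasi-likelihood test of edgeR 4.0.16 (R 4.3.3), with Benjamini-Hochberg adjustment over 15663 genes and a threshold of 0.05. These genes held 99.9% of the counts. The script was tested on simulated data. Single values were compared with an exact two-sided permutation test. The alternatives were DESeq2 1.42.0 and edgeR without and with effective-length offsets, DESeq2's size factors, limma 3.58.1 (voom, and log2(TPM + 1) or log2(TPM + 0.1)), other filters on low counts, a replicate block and each library left out. DESeq2 with offsets and each library left out was chosen after seeing the data.

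The 8 genes, the gene lists and the tests were chosen with earlier results of these data known. Besides the 8 genes, the text names FOXL2, the paralog ARAF, from each pathway list the edgeR calls and the 2 genes with the smallest p, the 3 genes most correlated with GRB2, and pseudogenes and overlapping genes with counts. MAPK3, MAP2K2, CCND1, PHLDA1, SPRY4, CBL, NF1, DUSP4 and DUSP6 were added after their values were seen. Coordinates and transcripts are those of GENCODE v29 (GRCh38) and promoter windows those of RefSeq (GRCh38.p14), which may differ from the authors' release. Some pathway genes, and the family shares that need them, are not reported here.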

Additional observations from a re-analysis of the deposited data

How the results depend on the processing

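The number of genes called over all genes moved most. It was 41 in edgeR on counts, 350 in DESeq2, 344 in DESeq2 with length offsets, 13 in limma on log2(TPM + 1) or log2(TPM + 0.1), 8 in limma with every gene above 0 TPM, 737 without a filter on low counts and 67 when genes needed a mean of 50 counts. Leaving out single libraries, it was 0 to 534 in edgeR (534 without FOXL2 siRNA replicate 2, 0 without control siRNA replicate 1). In DESeq2 with length offsets it was 362, 585 and 271 without FOXL2 siRNA replicates 1, 2 and 3, and 127, 125 and 231 without control siRNA replicates 1, 2 and 3. The cause was not tested, other than that leaving out a library leaves fewer samples.

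Of the 8 genes, 0 were called on counts, 1 (GRB2, -0.242) in DESeq2 with length offsets, and 2 (GRB2, -0.277, and NRAS) in that fit without FOXL2 siRNA replicate 3. GRB2 was lower in every alternative, at -0.216 to -0.123 in edgeR with a library left out. Of the 63 tested pathway genes, 0 were called on counts and with length offsets in either tool. Without a filter 3 were called (PPP1CB, SPRY2 and CCND1), and 0 to 2 in edgeR with a library left out (NF1 and SPRY4 without FOXL2 siRNA replicate 2). In DESeq2 with length offsets, 4 were called without FOXL2 siRNA replicate 2 (CBL, RRAS2, NF1 and SPRY4), 1 without control siRNA replicate 3 (DUSP5) and 0 without each other library.

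The direction turned for PTPN11, at -0.0697 to 0.0457 in edgeR with a library left out, and for BRAF, at -0.00187 in DESeq2 with length offsets, -0.207 without FOXL2 siRNA replicate 3 and -0.173 without control siRNA replicate 2 in that fit. The share of SOS1 among the SOS genes was lower in every alternative, by -2.48 to -0.29 percentage points with a library left out and -0.305 with a constant length. The call of FOXL2 was lost in edgeR without control siRNA replicate 1 (log2 fold change -1.897, adjusted p = 0.053, against -1.879 with all libraries) and in limma with every gene above 0 TPM (-1.36, adjusted p = 0.118).

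The main fit did not pair the libraries by their shared replicate numbers. The correlations of same-numbered libraries were -0.111, 0.186 and 0.178, and those of the other pairs -0.241 to 0.177. These are correlations of deviations from the mean of each condition over few libraries, so they cannot settle whether the libraries were paired. With a replicate block, edgeR called 11 genes and DESeq2 179, of which 0 were among the 8 genes and 0 among the pathway genes. GRB2 was at -0.178 in edgeR with the block. The 8 genes had 664 to 6747 expected counts per library, and RASGRF1 and RASGRF2 had 7 to 23. The part of depth in the results was not tested.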
